A study of Bos taurus with 42 samples.

Results

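Fragments of small nucleolar RNAs (snoRNAs) were followed through bovine oocytes, embryos made by fertilisation or cloning, cells grown from blastocysts and ear fibroblasts. The deposited table of small RNAs has 12345 entries, and the members were the 71 entries whose first annotated hit is a snoRNA. Of these, 50 name 1 Ensembl gene, 8 name 2 and 13 name 3, for 94 distinct genes in all. How reads were assigned to an entry is not stated in the labels. The table gives each entry's Rfam family by accession and no snoRNA name, so entries are called by that accession here. Exceptions are U3 (RF00012), U8 (RF00096), SNORA73 (RF00045) and SNORD116 (RF00108), which carry the names that Rfam gives these families. Letters separate entries of 1 family, in table order.

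snoRNAs are short stable RNAs that, bound to protein, work mainly in the nucleolus. Box C/D snoRNAs guide ribose methylation of ribosomal RNA and box H/ACA snoRNAs guide its pseudouridylation, while a few, among them U3, U8 and SNORA73, act in the cleavage of the ribosomal RNA precursor. Cattle embryos are largely transcriptionally quiet after fertilisation, and their nucleoli become active around the major activation of the embryonic genome, at about the 8-cell stage. A small-RNA library holds fragments of snoRNAs, so its counts need not follow the level of the intact RNA.

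The 42 libraries fall into 12 groups, all of bovine RNA under 200 nucleotides sequenced on an Ion Proton instrument. NT embryos were made by somatic cell nuclear transfer: oocytes without their chromosomes received fibroblasts of passages 4 to 5, from the ear of a Brahma Spanish cross bull. IVF embryos came from matured oocytes and the semen of a Holstein bull. Both kinds were grown on cumulus cells and taken in pools of 20 at the 2-cell stage (day 2; 4 NT and 4 IVF libraries), the 8-cell stage (day 3; 4 NT and 3 IVF), the morula (day 6; 3 NT and 4 IVF) and the blastocyst (day 8; 4 NT and 3 IVF). There were also 3 NT and 4 IVF libraries of blastocyst-derived cells, 3 of fibroblasts cultured from the same kind of ear biopsy and 3 of oocytes matured in culture. NT and IVF embryos differ in paternal and nuclear genome as well as in method, and these cannot be told apart. The labels mention 4 pools per stage in one place and 3 in another. In the fit over all 12 groups, p-values rest on 1 estimate per sequence of the spread between libraries of a group. Groups were unequal in this. The median SD of the log2 values of the 9 highest snoRNA entries was 1.97 in fibroblasts and 2.35 in IVF morulae. It was 0.517 in NT and 0.615 in IVF blastocysts. In bulk RNA, fewer cells of a type and less RNA per cell cannot be told apart.

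Levels are given as normalised reads: reads recovered from the deposited log2 values, divided by the library's size factor. Depth and size factors set what could be seen. Libraries held 25119 to 3081186 listed reads, but only 2 to 8877 snoRNA reads each. The level of 3 reads, used as the floor of detection for an entry at 0, averaged 13.4 normalised reads in oocytes, 4.85 in NT and 3.97 in IVF 8-cell embryos, and 1.74 in NT and 2.72 in IVF blastocysts. An entry at a few normalised reads in blastocysts was therefore not detectable in the oocyte libraries. Listed reads overlapped, at 408953 to 506363 in oocytes, 296591 to 773476 in NT and 247926 to 790043 in IVF blastocysts. The oocyte and blastocyst floors differ mainly through the size factors, whose median in blastocysts was 8.32 times that in oocytes. Several libraries stood apart. NT 2-cell replicate 4 held all 12345 entries of the table, the 71 snoRNA entries included, whereas IVF morula replicate 3 held 2 snoRNA reads of 1 entry and fibroblast replicate 1 held 12 snoRNA entries. The table may thus be limited to sequences present in that 2-cell library, which was not tested. The number of members, the shares of listed reads and the entries found per library all refer to the table as it stands. The NT 2-cell values and the comparison of NT with IVF 2-cell embryos include that library and carry the same limit.

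Marker miRNAs gave a mixed picture of the labels. The oocyte miRNA miR-205 stood at 794 to 886 normalised reads in oocytes, against 0 to 0.969 in fibroblasts. Of 5 epithelial and trophectoderm markers 2 were listed, and their sum in fibroblasts was 0 to 0.149. This sum was 37.7 to 85.8 in NT and 76.2 to 175 in IVF blastocysts, against 87.9 to 166 in oocytes. In blastocyst-derived cells it was 2245 to 3908 in NT and 0 to 7871 in IVF cells. Of 3 blood and serum miRNAs 2 were listed, summing to 7.03 to 10.1 in oocytes, 6.92 to 21.2 in NT and 12.3 to 49.2 in IVF blastocysts. They summed to 38.0 to 110 in NT and 20.3 to 69.2 in IVF 8-cell embryos. The 6 fibroblast and mesenchymal miRNAs summed to 722 to 8183 in fibroblasts and 2648 to 15813 in blastocyst-derived cells, against 74.4 to 194 in blastocysts and 534 to 907 in oocytes, so the lowest fibroblast library lay within the oocyte range. IVF morula replicate 1 had 4295 for the same list and 2405 for the epithelial list, whereas the medians of the 4 IVF morulae were 367 and 94.3. Fibroblast replicate 3 had 5583 for the 3 cumulus and granulosa miRNAs, against 0 and 1.94 in the other fibroblast libraries. That list summed to 9.55 to 42.4 in blastocysts, against 387 to 1616 in oocytes and 119 to 301 in 8-cell embryos, so it moved with the blastocyst comparisons as well, and its part in them was not tested.

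The 71 entries belong to 55 Rfam families, 10 of which have several entries. U3 has the most, with 5, followed by U8, SNORA73 and SNORD116 with 3 each. Entries were found in 3 to 41 libraries: 27 in at least 21 libraries, 15 in 10 or fewer, and 0 in all 42. The class is uneven, since the 6 entries with the most reads held 63.6% of the 82380 snoRNA reads. By the mean over groups on the deposited log2 scale, the leading entries were RF00476, RF01299, U3-E, U3-B, RF00592 and RF00289, all found in 38 to 41 libraries. By the mean over groups in normalised reads, the order was U3-B, U3-E, RF01299, RF00476, RF00592 and U3-C. These are read numbers and not levels per length of the RNA. In all, 45 entries were found in none of the oocyte libraries and 12 in each of them, and 27 were found in each of the 7 blastocyst libraries.

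**Figure D1:**
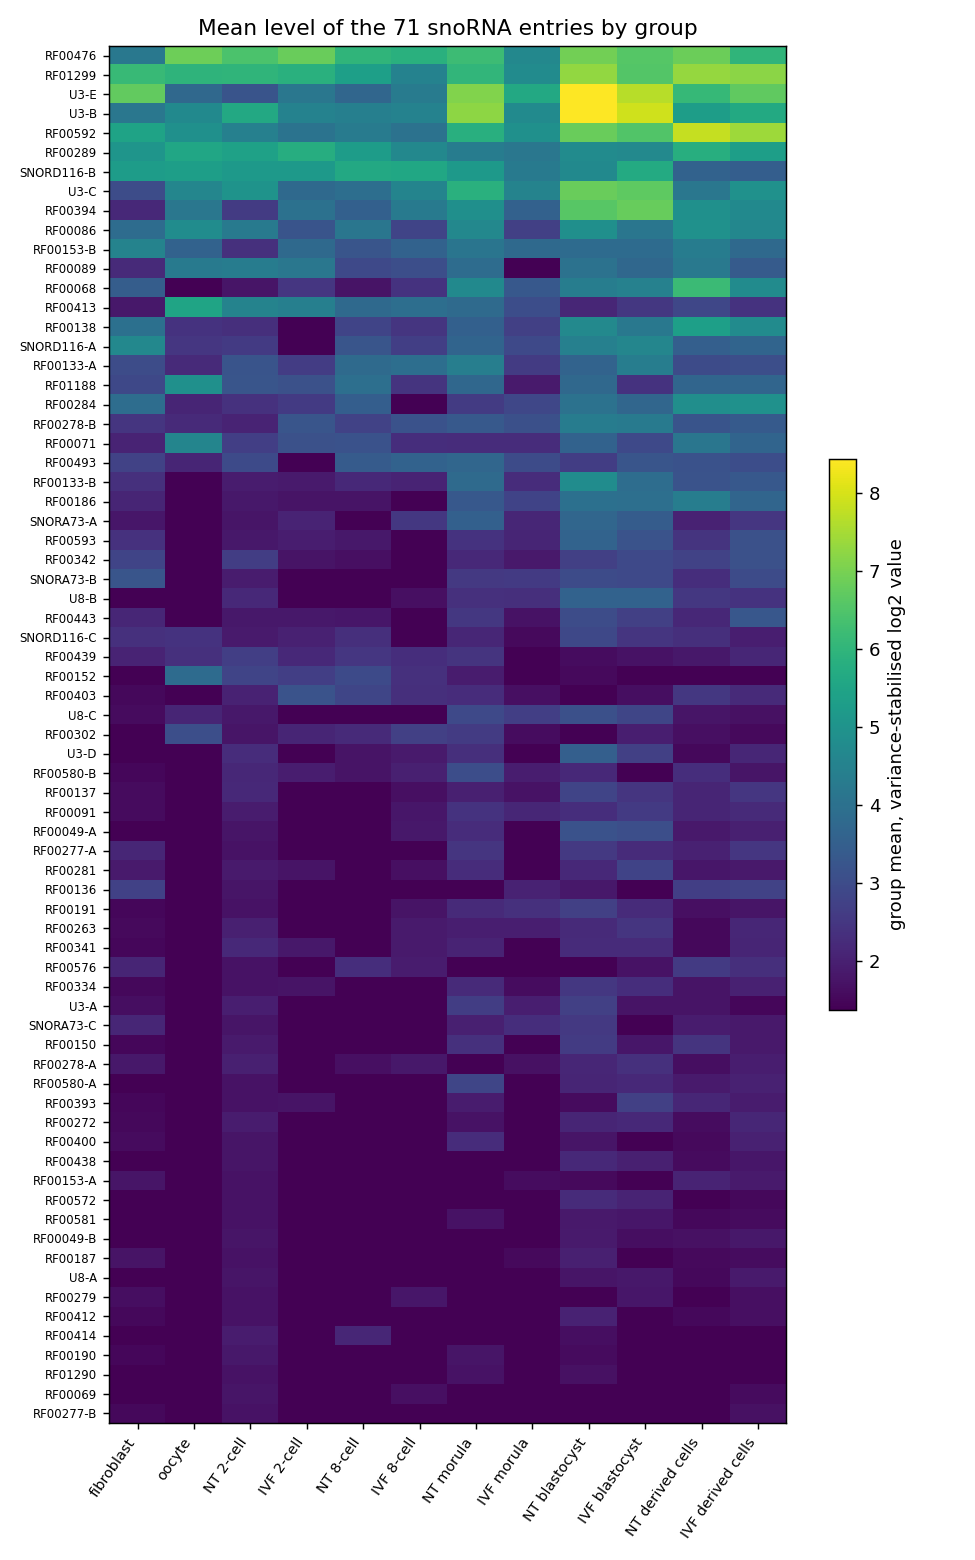
Mean variance-stabilised log2 value of each of the 71 snoRNA entries (down the page) in each group (columns; fibroblasts and oocytes first, then NT and IVF at each stage). Entries are ordered by their mean log2 value over groups, and the darkest colour is the lowest value in the table, at which an entry was not found. A bright block at U3-B, U3-C, U3-E and RF00394 marks the blastocysts.

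snoRNA fragments made up a small share of the listed reads that was much larger in blastocysts than before the morula. Oocytes held 0.0267, 0.0245 and 0.0359%, a mean of 0.0290% ± 0.00604 (SD, n = 3). Means were 0.0298% ± 0.0123 in NT and 0.0452% ± 0.0421 in IVF 2-cell embryos, 0.0293% ± 0.0111 in NT and 0.0343% ± 0.0138 in IVF 8-cell embryos, and 0.168% ± 0.121 in NT and 0.103% ± 0.0977 in IVF morulae. The share was 0.859, 1.15, 0.396 and 0.862% in the NT blastocysts, against 0.578, 0.321 and 0.367% in the IVF blastocysts. Each blastocyst library was above every oocyte, 2-cell, 8-cell and morula library. Blastocyst-derived cells held 0.313% ± 0.0949 in NT and 0.265% ± 0.0370 in IVF cells, each library below every blastocyst library of its own kind. Fibroblasts ranged from 0.0347% in replicate 1 to 0.686% in replicate 3. Shares of other classes moved too. Mean rRNA shares were 7.32% in NT and 4.78% in IVF blastocysts, against 0.787% in oocytes. Mean snRNA shares were 2.53% in NT and 1.39% in IVF blastocysts, against 0.180% in oocytes. Normalised reads of these classes differed far less. For rRNA they averaged 17544 in NT and 14410 in IVF blastocysts, against 16951 in oocytes. For snRNA they averaged 5538 in NT and 4247 in IVF blastocysts, against 3899 in oocytes. Shares of piRNA were 13.8% to 29.8% in NT and 20.8% to 32.2% in IVF blastocysts, against 88.1% to 91.5% in oocytes. IVF morula replicates 1 and 3 held 0.143% and 14.7% piRNA. The part of these classes in the snoRNA share was not tested. Without NT blastocyst replicate 3 the NT mean was 0.956% ± 0.166 (n = 3).

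**Figure D2:**
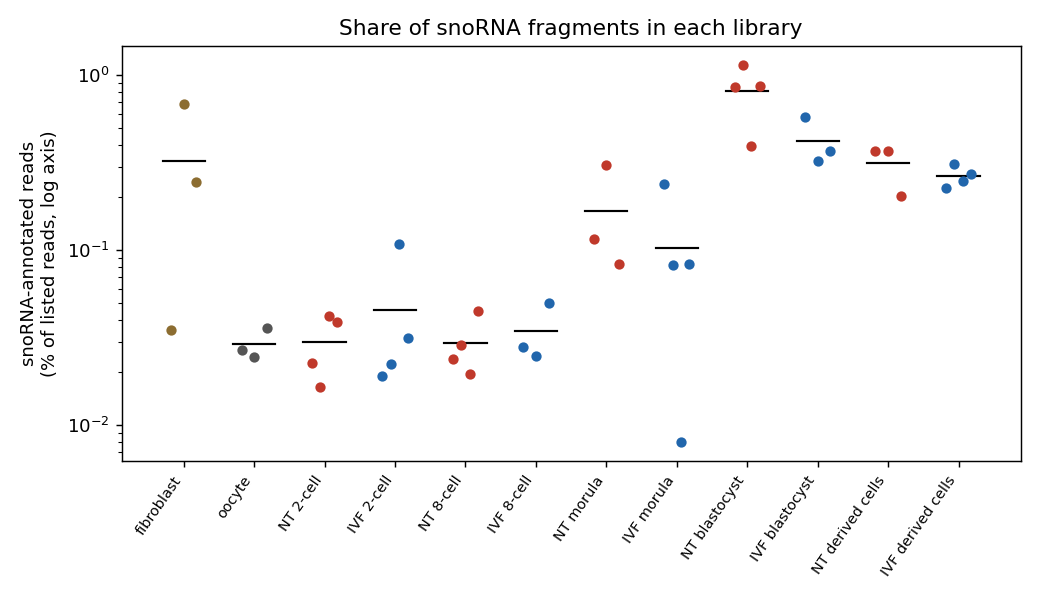
Share of listed reads annotated to snoRNAs in each library (points; percent, log axis) by group, with the group mean as a bar (fibroblast brown, oocyte grey, NT red, IVF blue). Oocytes lie between 0.0245% and 0.0359%, and the 7 blastocyst libraries between 0.321% and 1.15%.

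U3, which base-pairs with the ribosomal RNA precursor and is needed for the cleavages that free the small-subunit rRNA, was the family with the most reads in blastocysts. U3-B, which names ENSBTAG00000028359 alone, had 578, 784, 74.5 and 389.8 normalised reads in NT blastocysts, against 24.3, 20.3, 4.88 and 24.8 in NT 8-cell embryos. In IVF embryos it had 219, 189 and 329 in blastocysts, against 6.76, 5.93 and 90.9 at the 8-cell stage. The blastocyst and 8-cell values did not overlap in either kind, and the changes passed the test: a log2 change of 4.03 ± 0.94 (SE; adjusted p = 0.00039) in NT embryos and a log2 change of 3.44 ± 1.09 (SE; adjusted p = 0.0215) in IVF embryos, by limma with Benjamini-Hochberg adjustment over 12039 sequences.

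U3-E, which names ENSBTAG00000034337, ENSBTAG00000034770 and ENSBTAG00000046246, behaved alike. It had 598, 677, 100.4 and 304 normalised reads in NT blastocysts and 3.04, 20.3, 7.31 and 8.58 in NT 8-cell embryos, a log2 change of 4.71 ± 0.88 (SE; adjusted p = 1.62e-05). In IVF embryos it had 209.6, 158 and 239 in blastocysts and 24.8, 2.37 and 34.3 at the 8-cell stage, a log2 change of 3.38 ± 1.02 (SE; adjusted p = 0.0154). Neither pair overlapped. U3-C, which shares ENSBTAG00000028359 with U3-B, had 215, 338, 13.5 and 116 in NT blastocysts and 16.7, 10.9, 7.31 and 8.58 in NT 8-cell embryos, where the test passed with a log2 change of 2.91 ± 0.89 (SE; adjusted p = 0.00622) although replicate 3 of the blastocysts lay within the 8-cell range. In IVF embryos U3-C had 93.7, 101 and 98.8 in blastocysts and 18, 8.31 and 39.6 at the 8-cell stage, which did not overlap but missed the threshold (adjusted p = 0.15). U3-A and U3-D were sparse, with 1.13 to 5.60 and 0 to 20.8 normalised reads in the NT blastocysts. Both passed the test against NT 8-cell embryos (adjusted p = 0.021 and 0.0159), U3-A not without NT blastocyst replicate 2 (0.0717) and U3-D not without replicate 1 or 2 (highest 0.0824).

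Replicate 3 of the NT blastocysts was the lowest of its group for all 5 U3 entries, and the summed U3 level there was 189.6 normalised reads against 821 to 1825 in the other 3. Without it the NT mean was 1351 ± 504 (SD, n = 3). Morulae spread as widely. U3-B had 132, 545 and 40.5 in NT morulae, against 23.1, 121, 0 and 54.5 in IVF morulae, the 0 being the library of 2 snoRNA reads. Summed U3 levels averaged 1060 ± 712 in NT and 551 ± 110 in IVF blastocysts (SD, n = 4 and 3), against 73.1 ± 24.8 in oocytes (n = 3). All other snoRNA entries together averaged 858 ± 176 in NT and 734 ± 286 in IVF blastocysts, against 522 ± 23.5 in oocytes. The ratio of these means over oocytes was thus 14.5 in NT and 7.54 in IVF blastocysts for U3, and 1.64 and 1.41 for the rest.

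**Figure D3:**
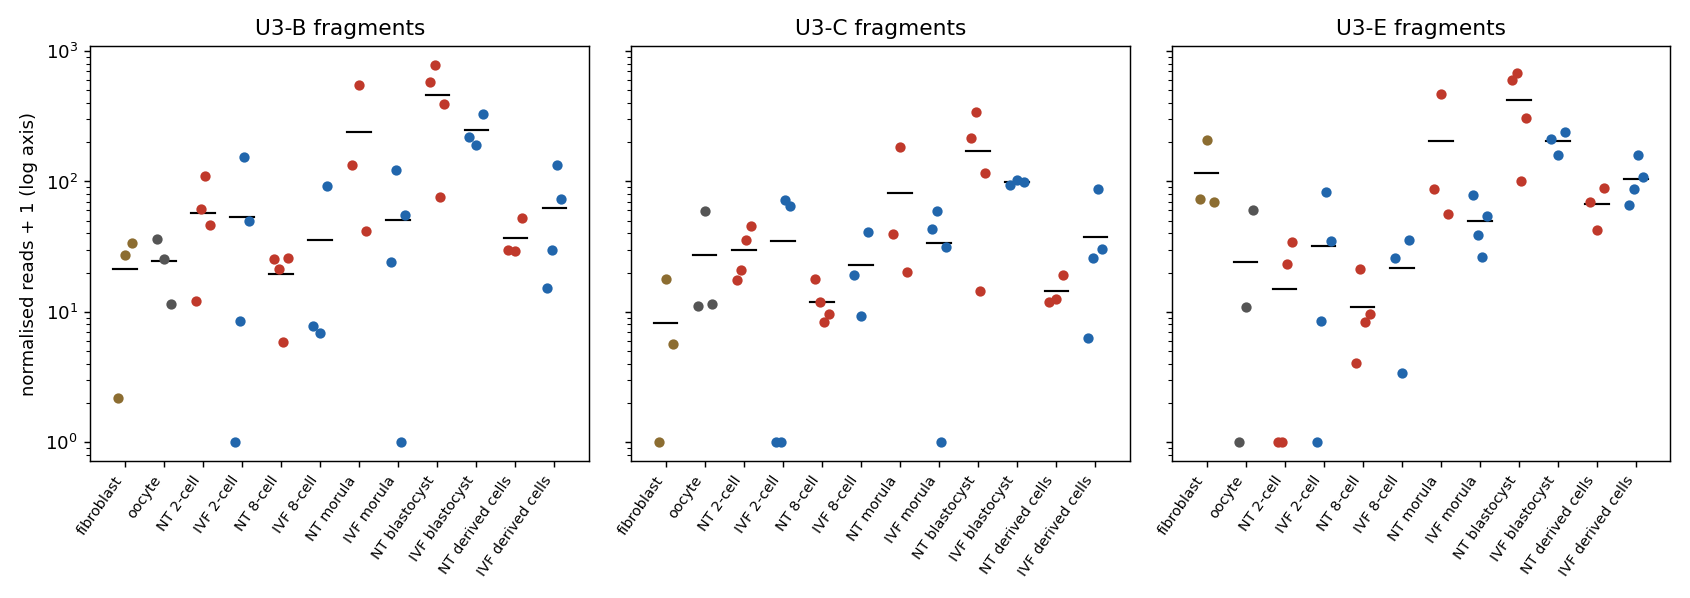
Normalised reads plus 1 (log axis) of U3-B, U3-C and U3-E in each library (points) by group, with the group mean as a bar (fibroblast brown, oocyte grey, NT red, IVF blue). U3-B lies at 74.5 to 784 in NT and 189 to 329 in IVF blastocysts, above every 8-cell library of its own kind.

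In the NT comparison of blastocysts with 8-cell embryos, 25 of the 66 tested snoRNA entries were higher and 2 lower, against 1.35% higher and 44.4% lower among all tested sequences. In the IVF comparison 5 were higher and 0 lower, against 0.365% and 17.2%. The 5 entries outside the test (RF00049-B, RF00069, RF00187, RF00190 and RF00277-B) were too low to enter it. They reached 1 log2 unit over the table's minimum in fewer than 3 libraries. Of the higher calls, 15 in NT and 4 in IVF embryos were measurable against the floor of the 8-cell libraries. The other 10 and 1 had blastocyst means at or under that floor. The median fitted change was 0.86 in NT and 0.71 in IVF embryos, against -1.13 and -0.77 over all tested sequences. With entries at 0 set to the bound that 3 reads allow, the medians were 0.74 over 40 snoRNA entries in NT and 0.75 over 42 in IVF embryos.

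The NT and IVF comparisons share no library, but they share 1 fit and its estimate of the spread. Of the IVF calls, 4 (80.0%) were among the 27 NT calls (14.8% of them): U3-B, U3-E, U8-B and RF00186. The NT calls were 40.9% of the tested snoRNA entries, and the overlap over all tested sequences is not given here. Whether the step differed in size between NT and IVF embryos was not tested. The NT count was 14 without NT blastocyst replicate 2, and 24 without replicate 3, the one low in U3. The IVF count was 1 without 8-cell replicate 3 or without blastocyst replicate 2 or 4, 2 without 8-cell replicate 2 and 3 without blastocyst replicate 3. RF00186 was the IVF call that held in every alternative. U3-B lost its IVF call without 8-cell replicate 2 or 3 or blastocyst replicate 2 or 4 (highest adjusted p = 0.118), and U3-E without 8-cell replicate 3 or blastocyst replicate 2 or 4 (highest 0.133). In NT embryos U3-B, U3-C and U3-E kept their calls in all 13 alternatives.

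**Figure D4:**
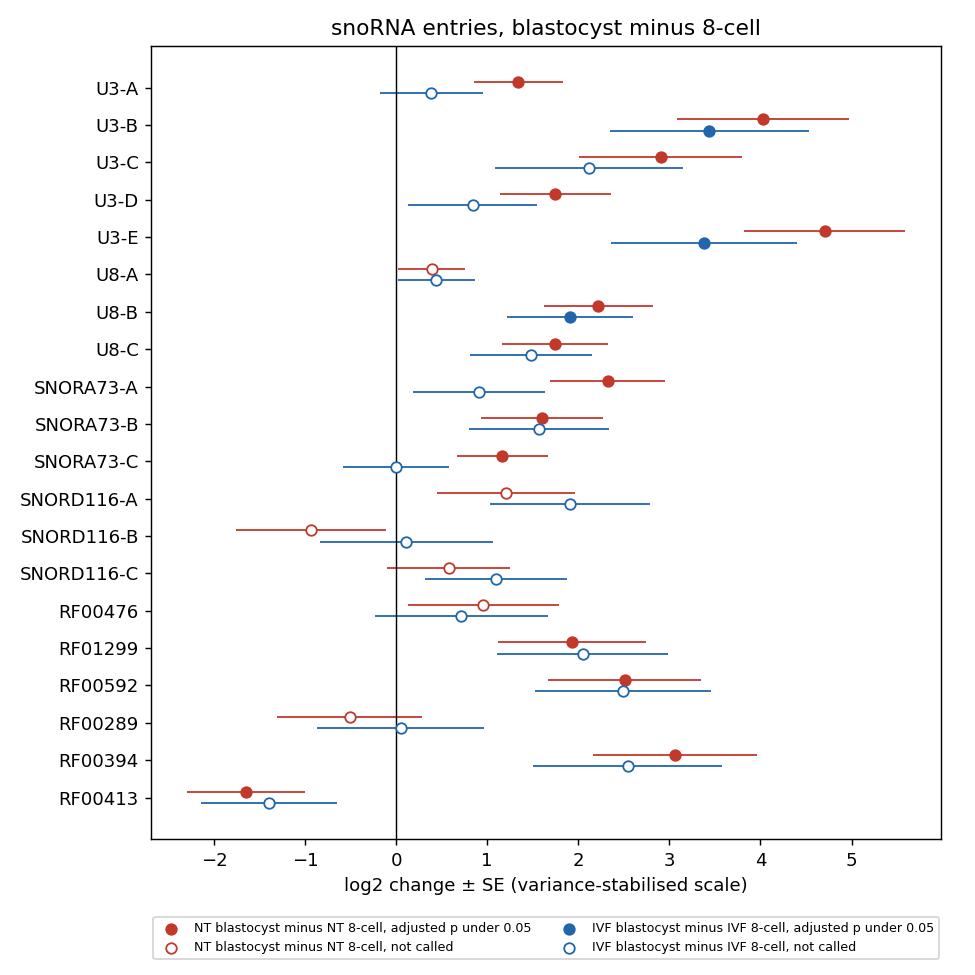
Log2 change from the 8-cell stage to the blastocyst for 20 named entries (down the page), NT in red above IVF in blue, with bars of 1 SE and filled points where the adjusted p was under 0.05. U3-E shows 4.71 in NT and 3.38 in IVF embryos; for entries at 0 in the 8-cell libraries the fitted change depends on the lowest value of the table and is not a bound.

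Against oocytes, which both comparisons share, 20 of 66 entries were higher and 3 lower in NT blastocysts (1.91% and 38.5% of all tested sequences), and 14 were higher and 3 lower in IVF blastocysts (1.49% and 33.9%, 35.4% in either direction). Measurable against the oocyte floor were 9 of the 20 and 6 of the 14. U3-B averaged 456 ± 301 normalised reads in NT and 245 ± 73.7 in IVF blastocysts, against 35.2, 24.5 and 10.5 in the 3 oocyte libraries. U3-E had the largest fitted change of the called entries in both, with a log2 change of 4.66 ± 0.96 (SE; adjusted p = 4.14e-05) in NT and a log2 change of 3.93 ± 1.02 (SE; adjusted p = 0.00135) in IVF blastocysts; the oocyte libraries held 0, 9.8 and 59.8. Other measurable entries that were higher in both were RF00068, RF00278-B and RF00394. RF00278-B lost its NT call without oocyte replicate 1 or 4 (highest adjusted p = 0.102), and its IVF call without either of these or IVF blastocyst replicate 2 or 3 (highest 0.14). Scaling changed this balance. Quantile normalisation gave 38 higher and 0 lower in NT and 24 and 0 in IVF blastocysts. CPM scaling gave 42 and 0 in NT and 27 and 1 in IVF blastocysts. The shares of all tested sequences called under these scalings are not given here, so these counts have no background. Medians over all tested sequences were -0.19 under quantile normalisation and -0.77 under CPM scaling in both kinds. The NT count was 14 without oocyte replicate 1 or NT blastocyst replicate 2 and 15 without oocyte replicate 3 or 4, and the IVF count was 11 without oocyte replicate 4 or IVF blastocyst replicate 3. In IVF blastocysts U3-B lost its call without oocyte replicate 4 or IVF blastocyst replicate 4 (highest adjusted p = 0.069), and U3-E without oocyte replicate 1 (0.0526).

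U8, needed for maturation of the large-subunit rRNAs, was sparse in every group, and U8-B and U8-C were found in each of the 7 blastocyst libraries. U8-B had 5.84, 13.8, 3.38 and 9.42 normalised reads in NT blastocysts and 0 in all 4 NT 8-cell libraries, so it was at least 1.67-fold higher (adjusted p = 0.00183). In IVF blastocysts it had 5.58, 9.38 and 7.43, against 0, 0 and 1.06 at the 8-cell stage, a log2 change of 1.91 ± 0.69 (SE; adjusted p = 0.0437). U8-B was at 0 in oocytes, where the mean blastocyst levels would not have been detectable. U8-C had 2.5, 3.62, 4.51 and 7.07 in NT and 3.35, 3.52 and 2.19 in IVF blastocysts and was at 0 in every 8-cell library. U8-A was found in 6 libraries. The IVF call of U8-B was lost in 5 of the 6 leave-one-out fits (highest adjusted p = 0.132), all but the one without 8-cell replicate 4.

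SNORA73, an H/ACA family that acts in small-subunit rRNA processing rather than as a typical guide, was sparse, and its 3 entries were called higher in NT blastocysts than in NT 8-cell embryos but not in IVF embryos. SNORA73-A had 10.8, 16.8, 2.82 and 7.07 normalised reads in NT blastocysts and 0 in the NT 8-cell libraries, at least 1.93-fold higher (adjusted p = 0.00198). In IVF embryos it had 8.92, 2.34 and 9.18 in blastocysts and 0, 2.37 and 6.34 at the 8-cell stage, and missed the threshold (adjusted p = 0.416). SNORA73-B had 8.34, 6.59, 5.64 and 0 in NT and 4.46, 2.34 and 3.5 in IVF blastocysts and was at 0 in oocytes and 8-cell embryos. Its NT mean was at least 1.06-fold the NT 8-cell floor. That bound was 0.84-fold without NT blastocyst replicate 1, 0.96-fold without replicate 2 and 0.93-fold without NT 8-cell replicate 4. SNORA73-C had 2.5, 5.6, 0 and 2.36 in NT blastocysts and was at 0 in the IVF blastocysts and in all 8-cell libraries. Its NT blastocyst mean lay under the NT 8-cell floor of 4.85, so its rise was not measurable. The NT calls of SNORA73-B and SNORA73-C were close to the threshold, at adjusted p = 0.0432 and 0.0499, and were each lost in 7 of 8 leave-one-out fits (highest 0.126 and 0.164). SNORA73-B and SNORA73-C had 60.8 and 3.26 in fibroblast replicate 3, against 0 to 1.12 in the other fibroblast libraries.

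SNORD116 is a box C/D family without a known rRNA target, encoded in humans and mice in an imprinted cluster active on the paternal chromosome. SNORD116-B was found in 41 libraries and was not called in any blastocyst comparison. It had 18.3, 13.2, 37.2 and 21.8 normalised reads in NT blastocysts and 47.1, 20.3, 61 and 66.7 in NT 8-cell embryos, which overlapped (adjusted p = 0.356). IVF values were 20.1, 87.9 and 55.1 in blastocysts and 40.6, 62.9 and 30.6 at the 8-cell stage, also overlapping (adjusted p = 1). Oocytes held 40.3, 19.6 and 52.7. NT and IVF blastocysts overlapped too, and their log2 difference was -0.99 (95% confidence interval -2.76 to 0.79). SNORD116-A had 13.3, 12.5, 24.8 and 19.4 in NT and 22.3, 22.3 and 14.4 in IVF blastocysts, against 0, 0 and 21.1 in oocytes; the NT call against oocytes (adjusted p = 0.047) overlapped and was lost without oocyte replicate 1 or 3 or any 1 of the NT blastocysts (highest 0.243). SNORD116-C ranged from 0 to 17.6 over all libraries.

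Some abundant entries were present throughout. RF00476 had 95, 131, 169 and 90.1 normalised reads in NT blastocysts, 144, 58.6 and 87 in IVF blastocysts and 80.5, 132 and 130.1 in oocytes, which overlapped. RF00289 had 14.2, 27, 26.5 and 24.7 in NT and 36.8, 12.9 and 19.2 in IVF blastocysts, against 15.1, 63.7 and 70.3 in oocytes. Neither passed the test in the 4 blastocyst comparisons with the deposited scaling. Before division by size factors, RF00476 had 114, 399, 299 and 153 reads in NT and 129, 50 and 199 in IVF blastocysts. It had 16, 27 and 37 reads in oocytes, so its overlap rests on the size factors. RF00592 did rise, with 92.5, 116, 141 and 87.7 in NT blastocysts and 16.7, 17.2, 4.88 and 29.5 in NT 8-cell embryos, a log2 change of 2.51 ± 0.84 (SE; adjusted p = 0.0116), a call lost without 8-cell replicate 3 (0.0583). RF01299 had 161, 183, 116 and 155 in NT blastocysts, against 45.6, 17.2, 61 and 34.3 in NT 8-cell embryos, a log2 change of 1.93 ± 0.81 (SE; adjusted p = 0.0445), lost without any 1 of 7 of the 8 libraries (highest 0.116). The IVF changes of RF00592 and RF01299 were 2.49 and 2.05 on the log2 scale, with adjusted p = 0.0614 and 0.119.

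A further set was low at the 8-cell stage or in oocytes and higher in blastocysts. RF00394 had 178, 319, 42.3 and 27.1 normalised reads in NT blastocysts and 6.08, 9.37, 4.88 and 8.58 in NT 8-cell embryos, a log2 change of 3.06 ± 0.90 (SE; adjusted p = 0.00419). In IVF embryos it had 241, 75 and 62.9 in blastocysts and 24.8, 10.7 and 10 at the 8-cell stage, which did not overlap but missed the threshold (adjusted p = 0.0764). Oocytes held 40.3, 44.1 and 0, and its calls against oocytes (adjusted p = 0.0365 in NT and 0.0405 in IVF) were lost in the fit of the groups alone, with a replicate block and without oocyte replicate 4, NT blastocyst replicate 1 or 2 or IVF blastocyst replicate 2 or 3 (highest 0.53 in NT and 0.47 in IVF). RF00068 was at 0 in oocytes and had 12.5, 19.1, 16.4 and 15.9 in NT and 34.6, 18.8 and 7.43 in IVF blastocysts, at least 1.19-fold and 1.51-fold higher. Without IVF blastocyst replicate 2 the IVF mean was under the oocyte floor. RF00186 had 3.34, 10.5, 14.1 and 23.6 in NT and 8.92, 14.1 and 9.61 in IVF blastocysts; of the 7 libraries of 8-cell embryos, NT replicate 1 had 3.04 and the others 0, and in IVF blastocysts it was at least 2.74-fold higher (4.22-fold without 8-cell replicate 2; adjusted p = 0.00936). RF00133-B had 36.7, 28.7, 10.2 and 24.1 in NT blastocysts, against 6.08, 0, 0 and 1.91 in NT 8-cell embryos. RF00393, the IVF call against the 8-cell stage with the lowest level, had 3.35, 2.34 and 1.75 in IVF blastocysts, under the floor of the 8-cell libraries, and its call was lost in 7 of 11 alternatives (highest adjusted p = 0.133).

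A few entries ran the other way and were lower in blastocysts. RF00413 had 2.5, 0.659, 0 and 1.18 normalised reads in NT and 0, 8.2 and 1.75 in IVF blastocysts, against 65.4, 24.5 and 38.7 in oocytes, with no overlap. It fell with a log2 change of -3.36 ± 0.70 (SE; adjusted p = 5.09e-05) in NT and a log2 change of -2.96 ± 0.75 (SE; adjusted p = 0.000918) in IVF blastocysts, and both calls were lost under quantile normalisation and CPM scaling (highest adjusted p = 0.585 in NT and 0.708 in IVF). RF00413 was also called lower in NT blastocysts than in NT 8-cell embryos (adjusted p = 0.0313), a call lost in 7 of 13 alternatives (highest 0.817). At the 8-cell stage the values were 21.3, 10.9, 9.75 and 1.91 in NT and 13.5, 8.31 and 10 in IVF 8-cell embryos. RF00152 was found in 1 of 7 blastocyst libraries, at 0.659, and had 0, 34.3 and 24.6 in oocytes; the IVF mean of 0 put it at least 7.21-fold lower, or 4.52-fold without oocyte replicate 3. RF01188 had 3.35, 0 and 3.06 in IVF blastocysts, against 30.2, 29.4 and 17.6 in oocytes, a log2 change of -2.52 ± 0.77 (SE; adjusted p = 0.00694), a call lost under both other scalings and without IVF blastocyst replicate 3 (highest 0.794). RF00152 lost its calls under quantile normalisation and without oocyte replicate 3 or 4, and in NT blastocysts under CPM scaling too (highest adjusted p = 0.191 in NT and 0.108 in IVF). RF00302 had 10.1, 0 and 10.5 in oocytes and 0 in NT blastocysts, and RF00403 had 10.6, 3.12, 4.88 and 0 in NT 8-cell embryos and 0 in NT blastocysts; both means lay under the floor of their own group, and both calls were lost in most alternatives (highest 0.579 and 0.727).

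Between NT and IVF libraries of the same stage, 0 of the 66 tested entries passed the limma threshold at the 2-cell, 8-cell, morula and blastocyst stages or in blastocyst-derived cells. Among all tested sequences the shares called were 2.28% (2.16% higher and 0.125% lower), 0.00831%, 0%, 0.00831% and 0%. The 2-cell share includes NT 2-cell replicate 4, which held every entry of the table. At an unadjusted p under 0.05 there were 1, 2, 11, 2 and 0 entries, beside 1988, 972, 1223, 74 and 33 of all 12039 tested sequences. In morulae, 51 of the 66 entries and 6988 of all tested sequences had a change above 0. The 11 in morulae were all higher in NT, led by RF00089 (adjusted p = 0.245). RF00089 had 11.5, 8.09 and 10.1 normalised reads in NT morulae and 0 in the 4 IVF morulae. The floor of 3 reads was 1.00, 12.5, 38.1 and 3.80 normalised reads in those IVF libraries. Its mean of 13.9 lay above each NT value, so no fold is given. CPM scaling called 1 entry in morulae, as did leaving out IVF morula replicate 2, and leaving out IVF morula replicate 4 called 2. The IVF morulae include the library of 2 snoRNA reads and the one with the high marker sums.

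Intervals of the differences were wide. For U3-B the NT minus IVF log2 difference was 0.51 (95% confidence interval -1.52 to 2.54) in blastocysts and 2.47 (95% confidence interval 0.44 to 4.50) in morulae. For U3-E in blastocysts it was 0.73 (95% confidence interval -1.17 to 2.63), and for RF01299 0.75 (95% confidence interval -0.99 to 2.49). Missing the threshold thus does not show that cloned and fertilised embryos were alike. Over the 66 entries the median NT minus IVF difference was 0.34, 0.00, 0.62, 0.18 and -0.07 from the 2-cell stage to blastocyst-derived cells. Over all tested sequences it was 0.34, 0.33, 0.31, 0.00 and 0.00. The 2-cell medians include the NT library that held every entry of the table. Leaving out entries that neither group could show, and with entries at 0 at their bound, the snoRNA medians were 0.02, 0.06, 0.70, 0.15 and -0.08, against 0.16, 0.33, 0.62, -0.25 and -0.12 over all tested sequences.

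**Figure D5:**
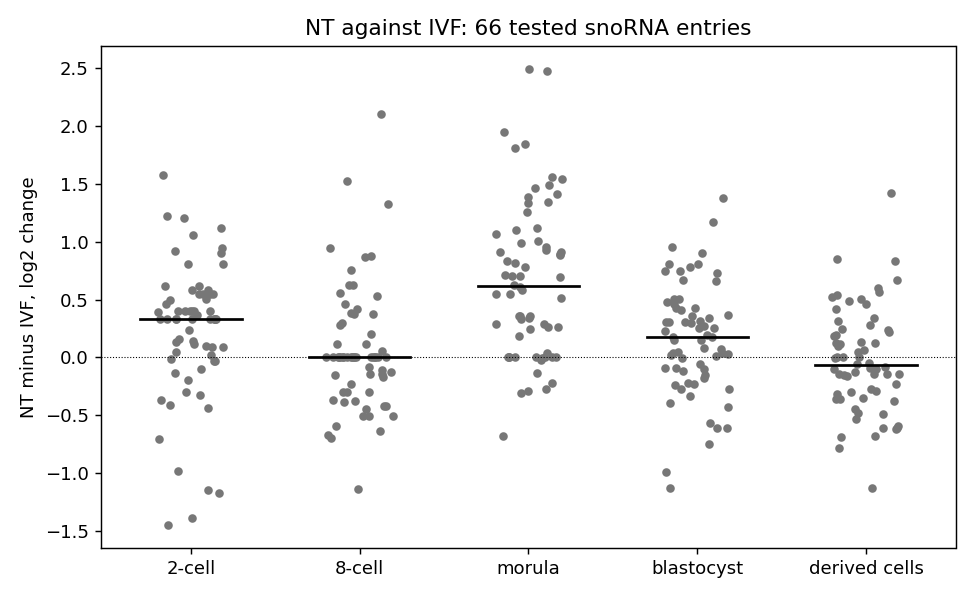
NT minus IVF log2 change of each of the 66 tested snoRNA entries (points, spread sideways at random) at 5 stages, with the median as a bar. Points run from -1.45 to 2.49, and none had an adjusted p under 0.05.

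Of the U3 entries, U3-B differed most in fitted change between blastocyst-derived cells and blastocysts, without passing the test. It had 28.7, 28.2 and 51.3 normalised reads in NT cells, against 578, 784, 74.5 and 389.8 in NT blastocysts. U3-B had 14.2, 28.7, 132 and 72 in IVF cells, against 219, 189 and 329 in IVF blastocysts, and neither pair overlapped. U3-E had 68.2, 41.4 and 88.7 in NT cells, below the NT blastocysts, and its highest IVF cell library and lowest IVF blastocyst both stood at 158. U3-C had 10.9, 11.5 and 18.1 in NT cells, which overlapped the NT blastocysts, and 5.27, 24.8, 85.9 and 29.4 in IVF cells, which lay below the IVF blastocysts. The change of U3-B missed the threshold in the fit over all 12 groups, with adjusted p = 0.0847 in NT and 0.307 in IVF. That fit called 0 of 66 entries in either kind. Of all tested sequences it called 2.87% in NT (0.988% higher and 1.88% lower) and 5.17% in IVF (0.93% higher and 4.24% lower). At an unadjusted p under 0.05 there were 11 and 5 entries, beside 988 and 1357 of all 12039 tested sequences. A fit of only the groups compared called 4 higher and 16 lower in NT and 2 higher and 9 lower in IVF cells, of 46 entries tested in each; all tested sequences were then called higher in 15.1% and 9.52% and lower in 62.5% and 58.2%. In that fit U3-B had an adjusted p of 0.00241 in NT and 0.027 in IVF cells. Quantile normalisation gave the opposite balance, 6 higher and 1 lower in NT and 11 higher and 0 lower in IVF cells. The shares of all tested sequences called under it are not given here. Without NT blastocyst replicate 3 the NT count over all groups was 3. The mesenchymal miRNA sum was also higher in these cells than in blastocysts, and its part in the snoRNA values was not tested.

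Other snoRNA entries together had summed levels of 879 ± 191 normalised reads in NT cells and 858 ± 176 in NT blastocysts, and of 730.4 ± 356 in IVF cells and 734 ± 286 in IVF blastocysts. RF00068 had 105, 61.2 and 48.9 in NT cells, against 12.5, 19.1, 16.4 and 15.9 in NT blastocysts, without overlap (adjusted p = 0.34). RF00592 had 249.9, 279 and 151 in NT cells and 92.5, 116, 141 and 87.7 in NT blastocysts, again without overlap (adjusted p = 1). The balance of U3-E and U3-B is given as a description, with no test. U3-E had more reads than U3-B in all 10 libraries of cultured cells (3 fibroblast, 3 NT and 4 IVF blastocyst-derived) and in 8 of the 32 embryo and oocyte libraries. U3-E made up 54.5% to 98.4% of the sum of both in cultured cells and 42.2% to 57.4% in blastocysts, which overlap. It made up 0% to 85.0% in oocytes, 11.1% to 78.6% in 8-cell embryos and 23.7% to 100% in morulae, the last being the library of 2 snoRNA reads.

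Fibroblasts, the kind of cell that gave the NT nuclei, differed from oocytes in 11 of 66 entries, 4 higher and 7 lower, against 1.36% higher and 40.4% lower among all tested sequences. U3-E had 72.2, 206 and 68.8 normalised reads in fibroblasts and 0, 9.8 and 59.8 in oocytes, without overlap, a log2 change of 2.99 ± 1.02 (SE; adjusted p = 0.0136). RF00413 had 0, 0.814 and 0.373 in fibroblasts, against 65.4, 24.5 and 38.7 in oocytes, a log2 change of -3.67 ± 0.75 (SE; adjusted p = 2.73e-05). RF00476 had 1.16, 11.9 and 70.8 in fibroblasts, against 80.5, 132 and 130.1 in oocytes, a log2 change of -2.66 ± 0.95 (SE; adjusted p = 0.019). RF00071 and RF00089, with 0, 0.814 and 2.31 and 0, 1.09 and 3.73 in fibroblasts, were also lower than oocytes, at 40.3, 14.7 and 10.5 and 10.1, 14.7 and 21.1. Both lost their calls under quantile normalisation, CPM scaling and without fibroblast replicate 1, RF00071 also without oocyte replicate 1 and RF00089 without oocyte replicate 4 (highest adjusted p = 0.369 and 0.541). RF00476 lost its call under both other scalings and without oocyte replicate 3 or 4 or fibroblast replicate 1 or 3 (highest 0.91), and RF00413 under quantile normalisation (0.859). RF00152 was at 0 in fibroblasts and in oocyte replicate 1, and the mean of the 3 oocyte libraries put it at least 21.2-fold lower. That bound was 13.3-fold without oocyte replicate 3 and 37.9-fold without fibroblast replicate 1, and the call was lost under quantile normalisation and without oocyte replicate 3 or 4 (highest 0.102).

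Fibroblast libraries were unlike each other. SNORD116-B had 34.9, 303 and 0.894 normalised reads in replicates 1, 3 and 4, and SNORD116-A had 6.41, 120.5 and 7.15. RF00153-B, named after its values were seen, had 1.16, 395 and 2.01. Replicate 3 is the library with the high sum of cumulus miRNAs, whose part in these values was not tested. Without it 0 entries were higher and 4 lower; the calls of U3-E, SNORD116-A, SNORA73-B, RF00068 and RF00476 were all lost. U3-E also lost its call without oocyte replicate 1 and in the fit of the groups alone (highest adjusted p = 0.205). Counts were likewise 0 higher and 4 lower without oocyte replicate 1, and 1 and 4 without oocyte replicate 3. Quantile normalisation called 29 higher and 0 lower, CPM scaling 10 and 2, and the fit of the groups alone 0 and 5. That last fit called 3.55% of all its tested sequences higher and 84.9% lower. Such shares under the other scalings are not given here.

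Ribosomal and small nuclear RNA fragments, the classes on which snoRNAs and the related Cajal body RNAs act, gave other counts. In NT blastocysts against NT 8-cell embryos, 4 of 51 tested rRNA entries were higher and 8 lower, and 26 of 117 snRNA entries were higher and 21 lower. In the IVF comparison these were 0 and 2 for rRNA and 1 and 9 for snRNA. Of all tested sequences, 1.35% were higher and 44.4% lower in the NT comparison, and 0.365% and 17.2% in the IVF comparison. Median fitted changes were 0.48 for rRNA and 0.52 for snRNA in NT embryos, beside 0.86 for snoRNA entries. In fibroblasts against oocytes, 0 rRNA entries were higher and 11 lower, and 0 snRNA entries were higher and 28 lower. The calls made up 21.6% of the tested rRNA and 23.9% of the tested snRNA entries. Among all tested sequences there, 1.36% were higher and 40.4% lower. Differences between these classes were not tested.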

How the data were processed

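Small RNA was sequenced in 42 libraries of 12 groups. Deposited values are log2 values and, judged from the numbers themselves, come from DESeq2's variance-stabilising transform of counts: the authors trimmed reads with Trim Galore and used DESeq2, with builds bosTau8 and UMD3.1, per the submitters' processing notes. Their versions and the counting step were not stated there. The transform was inverted, with the lowest value above zero taken as 2 reads, and 100% of 188126 values came out whole within 0.01 reads. Normalised reads are these reads divided by the size factor. Shares are printed over recovered reads; the planned measure, the share of summed linear signal, is compared in the closing section.

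limma 3.58.1 in R 4.3.3 was fitted on the deposited log2 values over all 12 groups, with 1 mean per group and a mean-variance trend, on the 12039 sequences that 3 or more libraries held at 1 log2 unit or more over the table's minimum. Calls are Benjamini-Hochberg adjusted p under 0.05 over all of them. The fitting code was run on simulated counts of a single pair of groups, with large changes set in sequences well above the floor. That run does not cover the fit over all 12 groups or sparse entries.

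Named entries are the 6 with the highest mean over groups, up to 5 called in each direction per comparison, and all U3, U8, SNORA73 and SNORD116 entries. Members and lists were chosen with earlier results of these data known. Floors cover counting error only, and intervals are those of the fit. Alternatives were no filter, quantile normalisation, CPM scaling with 1 added, the groups compared alone, a replicate block and leaving out each library.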

Additional observations from a re-analysis of the deposited data

Results flagged for a closer look

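In groups of 4 libraries, 15 measures were screened for a library far from the others, 90 sets of values in all, and 5 stood out. About 1 in 20 sets would by chance. IVF 2-cell replicate 3 had snoRNA fragments at 0.108% of listed reads, against 0.0191% to 0.0315% in the other 3. In IVF morula replicate 3, which held 2 snoRNA reads, U3 made up 100% of them, against 22.0% to 29.4% elsewhere in the group, and the other entries summed to 0 normalised reads, against 486 to 522. IVF morula replicate 2 had 142 normalised reads of RF00394, against 0 to 15.2. SNORD116-B was at 17.6 normalised reads in IVF blastocyst-derived cells replicate 2, against 3.43 to 5.05 in the other 3.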

How the results depend on the processing

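Counts of called entries moved by more than 1.5 times mostly with scaling and with the samples in the fit. Shares of all tested sequences called under CPM scaling and quantile normalisation are not given here. CPM scaling gave 1 in NT against IVF morulae, 28 in IVF and 42 in NT blastocysts against oocytes, 21 in IVF and 45 in NT blastocysts against 8-cell embryos, and 10 in NT and 5 in IVF derived cells against blastocysts. Quantile normalisation gave 38 in NT blastocysts against oocytes, 18 in IVF blastocysts against 8-cell embryos, 7 in NT and 11 in IVF derived cells, and 29 in fibroblasts against oocytes. The groups compared alone gave 21 in IVF blastocysts against 8-cell embryos, 20 in NT and 11 in IVF derived cells, and 5 in fibroblasts. Fewer sequences enter that fit. For IVF blastocysts against 8-cell embryos it called 3.6% of all its tested sequences higher and 66.7% lower. These shares were 15.1% and 62.5% in NT derived cells, 9.52% and 58.2% in IVF derived cells, and 3.55% and 84.9% in fibroblasts. Under quantile normalisation the sign reversed for RF00413 in NT blastocysts against 8-cell embryos (0.27) and, in fibroblasts against oocytes, for RF00071 (1.02), RF00089 (1.33), RF00413 (0.14), RF00476 (1.91) and RF01188 (2.48, adjusted p = 0.00276); the cause was not tested. The median change of all tested sequences in NT blastocysts against oocytes was -0.87 with the deposited scaling, -0.19 with quantile normalisation and -0.77 with CPM scaling.

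Leaving out 1 library gave 4 to 10 calls in fibroblasts against oocytes, 1 to 5 in IVF and 14 to 24 in NT blastocysts against 8-cell embryos, 11 to 13 in IVF and 14 to 23 in NT blastocysts against oocytes, 0 to 3 in NT derived cells and 0 to 2 in NT against IVF morulae; the other 4 comparisons stayed at 0. With the replicate number as a block the counts were 15 and 20 in IVF and NT blastocysts against oocytes, 5 and 26 against 8-cell embryos, 11 in fibroblasts and 0 elsewhere. The numbers pair no samples in the labels, and in 0 of 12 comparisons did every same-numbered pair of deviations correlate above 0.1. The share over summed linear signal was 0.0391% in oocytes, 0.0549% in IVF 8-cell embryos and 0.318% in IVF derived cells, against 0.0290%, 0.0343% and 0.265% over recovered reads. The floor limits all entries at 0 in oocytes.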

Other observations

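Beyond the members, 2 rows whose first hit is a snRNA (RF00020) list a snoRNA (RF00414) among their later hits. They were found in 22 and 11 libraries, with 175 and 44 reads in all, and were not counted here.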
